A study of Solanum tuberosum with 12 samples.

Results

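In the list of predicted potato miRNAs, miR319 (PotatoMir1005931793) and miR396 (PotatoMir1005779550) had 1 locus each. They were therefore 2 of 324 loci, and 2 of 222 distinct mature sequences. The list also holds sequences with fewer than 5 reads, which the study removed from its final set. Ranks, shares and medians over the list include these sequences unless stated otherwise. Both members were selected on their high read numbers in this list, so their reads and ranks are given as a description, with no test. The libraries were made from *Solanum tuberosum* group *Andigena* clone ADG573, which forms tubers under short days (SD) and not under long days (LD). All plants came from in vitro propagation, were grown for 4 weeks under LD in a glasshouse, and were then moved to cabinets at 20 °C. The 12 libraries fall into 4 groups with 3 biological replicates each, namely leaf after LD, leaf after SD, stolon after SD and swollen stolon after SD. The labels give 8 days in the cabinets for every group, while the study's methods give later days for stolon. All groups are the same clone, so they hold no other genotype. The reads of all libraries were pooled before the prediction, and the list holds 1 whole number of reads per mature sequence. Values of single groups or replicates were not used here, so no difference between leaf and stolon or between LD and SD was measured, and no read number has an error between replicates.

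miRNAs are cut from a hairpin precursor by DICER-LIKE1 as a duplex of the mature strand and the star strand, and the mature strand then guides an ARGONAUTE protein to mRNAs with a matching site. In *Arabidopsis*, miR319 restrains TCP transcription factors, which limit cell proliferation in leaves, and it is closely related to miR159, which acts on GAMYB-like MYB transcription factors. miR396 restrains the growth-regulating factors (GRF), transcription factors that promote cell proliferation in leaves and meristems, also in *Arabidopsis*. In tomato, a close relative of potato, the TCP gene *Lanceolate* carries a miR319 site, and loss of regulation at this site simplifies the compound leaf.

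The mature sequences of both members are shown 5′ to 3′ as the list gives them, with bases 2 to 8 (the seed, which weighs most in target pairing) in capitals. The other sequences of the list with the seed of miR319 follow, because the comparison below turns on their 3′ ends.
miR319: tTGGACTGaagggagctccct
PotatoMir1005931858: tTGGACTGaagggagctcct
PotatoMir1005931998: tTGGACTGaagggttcccttc
miR396: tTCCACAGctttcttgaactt

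The seed TGGACTG of miR319 was thus held by 3 mature sequences of the list, and the seed of miR396 by miR396 alone. PotatoMir1005931858 is 20 nt long and is 1 edit (1 base changed, added or removed) away from miR319, and both share their first 19 bases. PotatoMir1005931998 shares its first 13 bases with miR319. It differs at 6 of 21 positions, all in the 3′ part, as A14T, G15T, T17C, C19T, C20T and T21C (the base of miR319 first, positions counted from the 5′ end). The next sequence in likeness to miR319, PotatoMir1003074560 with 8 reads, matched at only 12 of 21 positions. For miR396 the most similar sequence of the list was PotatoMir1005303009 with 51 reads and 12 matching positions. PotatoMir1001696104 with 45 reads and PotatoMir1002699934 with 41 reads matched miR396 at 11 positions. miR319 therefore had near relatives in the list, and miR396 stood alone at the level of the mature sequence.

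miR319 had 29010 reads over all libraries (95% Poisson interval 28677 to 29346), the third most of the list. miR396 had 16205 reads (15956 to 16456) and was the fifth. miR319 had 3.04% of the 954147 reads of the list, counted once per distinct sequence (95% Wilson interval 3.006 to 3.075%). The share of miR396 was 1.70% (1.67 to 1.72%), and both members together held 4.74% (4.70 to 4.78%). These shares depend on 1 sequence, PotatoMir1005257311 (named after its values were seen), which alone had 741106 reads (77.7%). Without it, miR319 had 13.6% and miR396 7.61%, and with reads summed over loci they had 1.16% and 0.646%. The list had a median of 17.5 reads per sequence, so both members lay in the steep upper end of the distribution. The reads of miR319 were 1.79 times those of miR396 (95% interval 1.76 to 1.82). All such intervals describe counting error alone and leave out differences between libraries, because the reads of all libraries were pooled. They also treat every read as a separate molecule, and PCR copies of 1 molecule cannot be told apart without molecular identifiers. The intervals may therefore be too narrow.

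**Figure D1:**
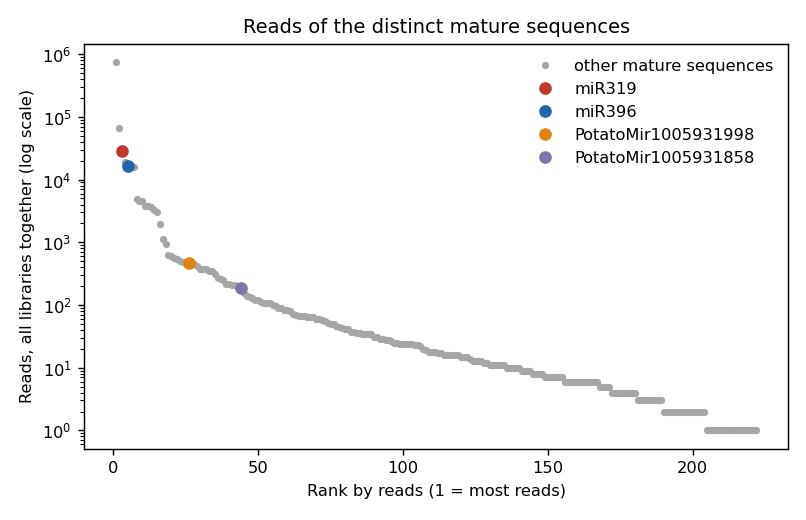
Reads over all libraries (log scale) of the 222 distinct mature sequences against their rank, with 1 point per sequence and the members and seed relatives of miR319 in colour. miR319 and miR396 lie at ranks 3 and 5, and PotatoMir1005931998 and PotatoMir1005931858 at ranks 26 and 44.

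The neighbours in the order of reads are given as a description. PotatoMir1005257691, directly above miR319, had 66492 reads, and PotatoMir1005244514, between both members, had 19366. miR319 had 1.498 times the reads of PotatoMir1005244514 (95% interval 1.47 to 1.53). miR396 had 0.837 times its reads (0.819 to 0.855). PotatoMir1005658171, directly below miR396, had 16170 reads, and the ratio of miR396 to it was 1.002 (0.981 to 1.02). miR396 and PotatoMir1005658171 thus had nearly equal reads.

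Within the group with the seed of miR319, nearly all reads were those of miR319 itself. It had 97.8% of the 29667 reads of the group (95% Wilson interval 97.6 to 97.9%). PotatoMir1005931998 had 469 reads or 1.58% (1.45 to 1.73%), and PotatoMir1005931858 had 188 reads or 0.634% (0.55 to 0.731%). miR319 exceeded PotatoMir1005931998 by 61.9 times (56.5 to 67.9) and PotatoMir1005931858 by 154 times (134 to 179). Each of the 4 mature sequences occurred in 1 listed precursor only, so the list assigns none of their reads to more than 1 hairpin. The authors aligned reads to the genome of another potato, the DM clone, and a read that differed from DM at any base was lost. Alleles of ADG573 that differ from DM within the mature sequence were therefore not counted.

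The locus of miR319 lies on the plus strand of superscaffold PGSC0003DMB000000048 of the DM potato genome, at 1381097 to 1381268, with the mature sequence at 1381248 to 1381268. This hairpin of 172 nt was the only listed locus of its superscaffold. The locus of miR396 lies on the plus strand of PGSC0003DMB000000272, at 516360 to 516464, with the mature sequence at 516360 to 516380. Both relatives of miR319 lie on PGSC0003DMB000000026 on opposite strands, 423397 nt apart, PotatoMir1005931998 at 1868465 to 1868641 on the plus strand and PotatoMir1005931858 at 2292039 to 2292211 on the minus strand. In RefSeq (SolTub_3.0), miRNA genes of equal length have start coordinates within 3 bases of those of all 4 loci. Their symbols are *MIR319A* for miR319, *MIR319B* for PotatoMir1005931858, *MIR319* for PotatoMir1005931998 and *MIR396* for miR396. The rule compared length and start coordinate only, and superscaffold and strand were not compared. The same rule found a RefSeq miRNA gene for 198 of the 324 loci, and the RefSeq annotation used holds 215 miRNA genes. At the matched loci the RefSeq start differed from the listed start by -1 on the plus strand and by 2 on the minus strand. Whether RefSeq took these genes from the same predictions was not tested, so the symbols serve as names only. Whether the hairpins lie in introns or between genes was not analysed here, as gene models of this build were not used.

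The precursors of both members are shown 5′ to 3′ with the mature strand in capitals, because the arms and the lengths of the hairpins are where the members differ.
miR319 precursor: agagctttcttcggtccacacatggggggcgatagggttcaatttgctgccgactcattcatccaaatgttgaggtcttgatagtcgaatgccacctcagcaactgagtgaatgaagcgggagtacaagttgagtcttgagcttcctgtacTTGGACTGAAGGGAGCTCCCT
miR396 precursor: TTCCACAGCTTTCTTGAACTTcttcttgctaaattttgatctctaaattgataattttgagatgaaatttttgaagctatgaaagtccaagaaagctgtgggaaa

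The mature strand of miR319 lies on the 3′ arm and that of miR396 on the 5′ arm. Over the list, 157 loci (48.5%) had the mature sequence on the 3′ arm and 167 (51.5%) on the 5′ arm. Both members are 21 nt long and begin with T (U in the RNA), as did 34 of the 59 distinct sequences of 21 nt. The 5′ U is the base that ARGONAUTE1 prefers in *Arabidopsis*. All 3 hairpins with the seed of miR319 carried the mature strand on the 3′ arm.

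miR319 came from a long hairpin. Its 172 nt precursor was the 37th longest of the 324 loci, against a median of 85.0 nt, and the relatives had 173 nt (PotatoMir1005931858) and 177 nt (PotatoMir1005931998). The precursor of miR396 had 105 nt, rank 112. GC content was 50% in the miR319 precursor and 31.4% in the miR396 precursor, around a median of 37.5% over all loci. In *Arabidopsis*, the long foldback of miR319 is cut by DICER-LIKE1 in several steps from the loop towards the base. No other mature sequence of the list lay in any of the 4 precursors, on either strand. The list gives 1 mature sequence per locus, so it cannot show whether these stems gave further products.

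The minimum free energy of the miR319 precursor was -84.70 kcal/mol at 37 °C (RNAfold), rank 35 from the most stable of 324. That of the miR396 precursor was -39.50 kcal/mol, rank 137. Since longer hairpins have more pairs, the energy was also divided by length. miR319 then had -0.492 kcal/mol per base and miR396 -0.376, against a median of -0.430 and an interquartile range of -0.506 to -0.344 over the list. Both hairpins thus fell within the middle part of the list, with miR319 on the more stable side (rank 97) and miR396 on the less stable side (rank 215). The values of PotatoMir1005931858 and PotatoMir1005931998 were -0.455 and -0.444 kcal/mol per base, close to the median. A folding value has no replicate error, and rests on the energy model.

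**Figure D2:**
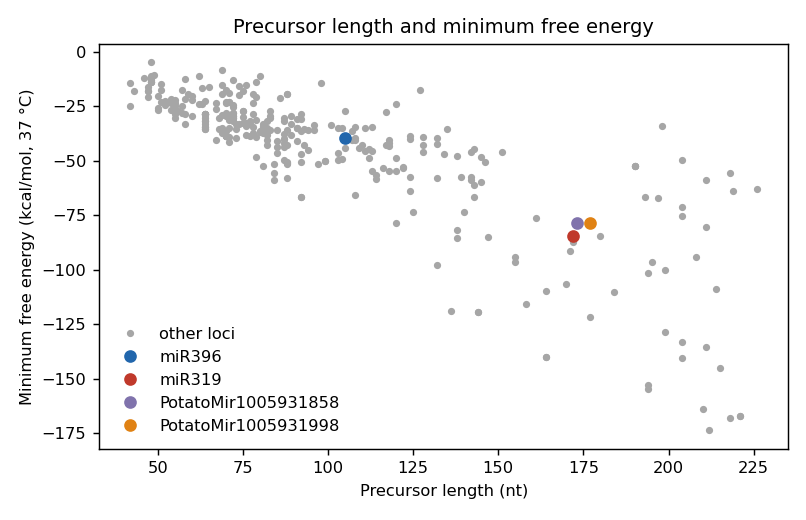
Precursor length (nt) against minimum free energy (kcal/mol, 37 °C) of the 324 loci, with 1 point per locus. The 3 hairpins with the seed of miR319 lie together at 172 to 177 nt and -78.60 to -84.70 kcal/mol, and miR396 is shorter, at 105 nt and -39.50 kcal/mol.

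The star strands were read from the fold as the strand opposite the mature strand with a 3′ overhang of 2 nt, and are shown to compare the duplexes.
miR319 star: agagctttcttcggtccacac
PotatoMir1005931858 star: gagctcctttcaggccaaga
PotatoMir1005931998 star: aggaaactgtttagtccaacc
miR396 star: gtccaagaaagctgtgggaaa

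In the duplex of miR319, 17 of the 19 mature bases before the overhang were paired. Positions 1 and 19 were unpaired, and positions 7, 12 and 13 formed G:U pairs. In that of miR396, 18 of 19 were paired, with position 17 unpaired and a G:U pair at position 2. Neither duplex had an asymmetric bulge. Both members met the criteria for plant miRNA duplexes (strands on opposite arms, no more than 4 mismatches, and a maximum of 1 asymmetric bulge, itself no longer than 2 nt), as did 82.1% of the loci. The study applied such criteria to its predictions, so nothing is read from this count. With G:U pairs counted as mismatches, 53.7% of the loci met the criteria. The duplex of miR319 then had 5 mismatches and did not meet them, and that of miR396 had 2 and did.

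The star strands differed more between the miR319 hairpins than the mature strands did. The star of miR319 was 9 edits from each of the stars of PotatoMir1005931858 and PotatoMir1005931998, whereas the mature strands were 1 and 5 edits apart. The whole precursors of miR319 and PotatoMir1005931998 were 74 edits apart over up to 177 nt, and those of miR319 and PotatoMir1005931858 were 75 apart over up to 173 nt. The 3 hairpins were thus alike in length and arm, and less alike in sequence outside the mature strand. None of the 4 star sequences was a listed mature sequence, and the closest listed sequence matched the miR319 star at 12 and the miR396 star at 13 of 21 bases. With 1 mature sequence given per locus, this does not show whether reads of the star strands occurred.

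The ensemble of structures gave the same picture base by base. In miR319, 17 of 21 mature bases were paired with a probability of at least 0.9, and 4 had less than 0.1. In miR396, 18 of 21 reached 0.9, and 1 (position 17) had less than 0.1. The mean over the mature strand was 0.806 for miR319 and 0.924 for miR396, ranks 195 and 46 of 324, against a median of 0.832. On the 3′ arm the last bases of the mature strand end the listed precursor and face no partner, so each member was also set beside the loci of its own arm, a description chosen after the values were seen. miR319 was then 74th of 157 loci (median 0.803), and miR396 46th of 167 (median 0.862). miR319 lay near the median of its arm, and miR396 in the better paired part.

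Between the mature and star strands, the miR319 hairpin had 130 nt, of which 102 (78.5%) were paired in the minimum free energy structure. The same segment had 72.6% paired bases in PotatoMir1005931998 (98 of 135 nt) and 63.2% in PotatoMir1005931858 (84 of 133 nt). In miR396 it was shorter, at 63 nt, with 40 bases (63.5%) paired. Each of the 4 minimum free energy structures closed in a single terminal loop, of 3 nt for both members, 5 nt for PotatoMir1005931998 and 9 nt for PotatoMir1005931858. In the ensemble, positions 77 to 93 of the miR319 precursor had pairing probabilities of 0.04 to 0.58, so its loop size is not settled. Positions 50 to 52 of the miR396 precursor had at most 0.0004. The mean pairing probability of the segment was 0.750 for miR319 and 0.648 for miR396, in the same order as the share of paired bases.

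**Figure D3:**
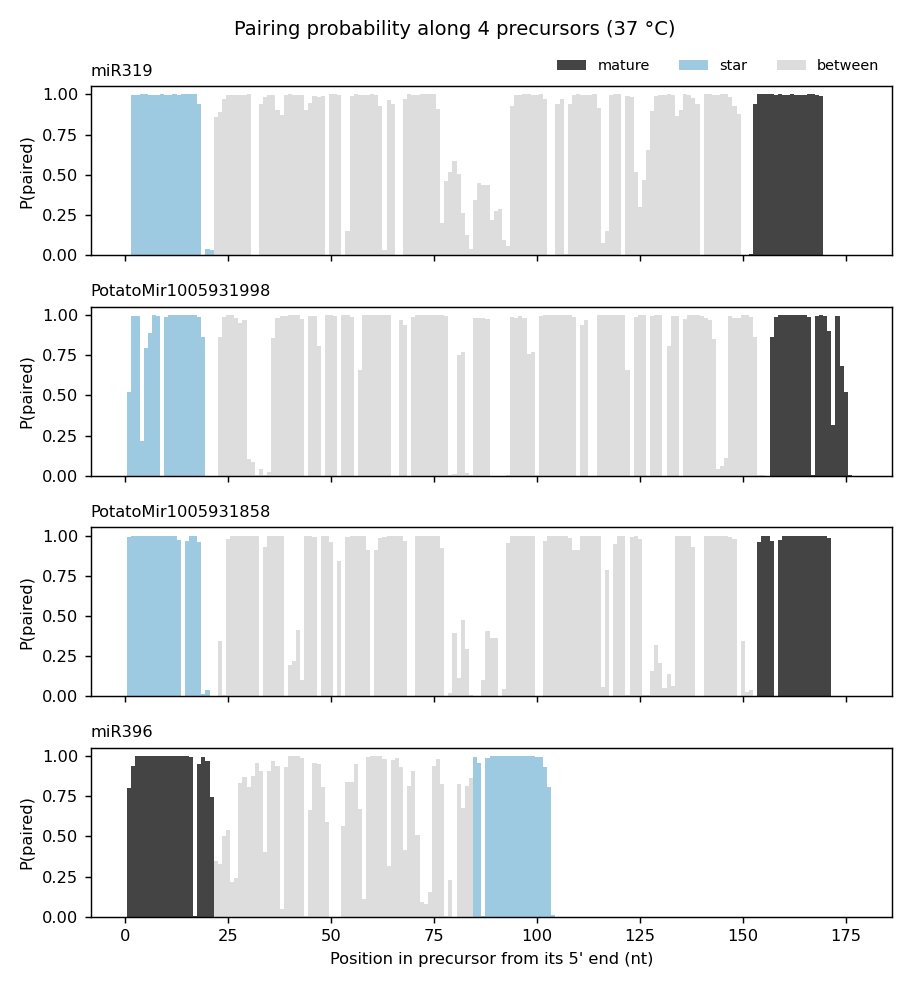
Probability that each base is paired (y axis, 0 to 1) along the 4 precursors from the 5′ end (nt), with the mature strand in black, the star strand in blue and the bases between them in grey. The mature strand ends the 3 long hairpins with the seed of miR319 and opens the shorter hairpin of miR396.

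Target sites were taken as sequences from the strict target prediction of the study, which searched the DM transcripts, and were paired here again with the mature sequences. Over the first 17 bases of the miRNA, each mismatch added 1 to the score and each G:U pair 0.5, and a low score means close pairing. Sites were chosen by the study for close pairing, so low scores are a property of the choice. No cleavage of these transcripts was measured. The sites of miR319 are shown 5′ to 3′, with bases that do not form a Watson-Crick pair in capitals and the last 6 digits of the first transcript in brackets.
GAMYB-like2 (015155): gagcucccuucaCuccaa
GAMyb-like1 (058425): ggagcucccuucaCuccaa
GAMYB-like2 (070549): ggagcucccuucaUuccaa
Fiber expressed protein (057733): ggagcuUcAuucaguccaa
Gene of unknown function (085927): GgAgUgcuUccuucaguUcaa

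These were 5 distinct sites in 9 transcripts, with scores of 1 to 2. GAMYB-like proteins are MYB transcription factors of gibberellin responses and anther development. The 3 GAMYB-like sites had a score of 1, and each had a single mismatch, at position 6 of miR319 inside the seed, with all other aligned positions in Watson-Crick pairs. The site of the fiber expressed protein paired over the whole seed but had a mismatch at position 11, next to the bond that ARGONAUTE cuts, and scored 1.5. The site of 085927 had mismatches at positions 17 and 19, G:U pairs at positions 4, 13 and 21, and a score of 2. PotatoMir1005931858 was listed with the same 9 transcripts as miR319.

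PotatoMir1005931998, with far fewer reads, had a different set of sites. None of the transcripts that the strict prediction listed for it was listed there for miR319. The study also gives a prediction with more relaxed limits. It was not used here, so whether miR319 shares transcripts under those limits was not examined. The 6 sites of PotatoMir1005931998 without gaps, in 11 transcripts, included 2 TCP genes by annotation, *Lanceolate* and *SlTCP3*, which had the same site letters. The sites of these TCP genes, of a gene annotated only as a transcription factor, and of an amino acid transporter are shown with non-Watson-Crick bases opposite PotatoMir1005931998 in capitals.
Lanceolate (032268): gaGgggaCcccuucaguccaG
SlTCP3 (039786): gaGgggaCcccuucaguccaG
Transcription factor (051252): aGgggGacccuucaguccaa
Amino acid transporter (014421): gaagggaacccuucaguccaa

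The TCP site scored 1.5 with PotatoMir1005931998, with a mismatch at position 14 and G:U pairs at positions 1 and 19. With miR319 the same site scored 3, with mismatches at positions 14, 15 and 20 and G:U pairs at positions 1, 17 and 21. The site of 051252 scored 0.5 with PotatoMir1005931998 and 2.5 with miR319. The amino acid transporter site paired with PotatoMir1005931998 over all 21 bases without a mismatch or G:U pair, and scored 2.5 with miR319. Of the other 2 sites, that of glucose-6-phosphate/phosphate translocator 2 (013500), a plastid sugar phosphate carrier, scored 1 and 3, and that of a gene of unknown function (040941) 1 and 3.5. Over the 6 sites the scores ran from 0 to 1.5 with PotatoMir1005931998 and from 2.5 to 3.5 with miR319. This order is set by the choice of sites. All 6 sites had mismatches opposite positions 14 and 15 and a G:U pair at position 17, and none had a mismatch in the seed. These are positions at which the mature sequences differ (A14T, G15T and T17C), so the choice of sites bears on where the mismatches lie as well. Another site listed for PotatoMir1005931998, with a gap in the pairing, was not scored.

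The sites of miR396 are shown in the same way.
DNA binding protein (084792): ucaagaaagcuguggaa
DNA binding protein (049891): aGgGucaagGaagcuguggaa
Tospovirus resistance protein A (016105): aUgAucaagaaagcuguggaa
Multicystatin (015250): aaCuucaagaaagUuguUgaa
Protein disulfide isomerase (006756): GaCuucaagaaaCUuguggaa
GRIP and coiled-coil domain-containing protein (046956): GagGuAaagaaagcuguggaG

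They were 6 sites in 12 transcripts, with scores of 0 to 1.5 and a median of 1. No annotation among them names a GRF, and 4 of the transcripts, at 2 sites, carry the general annotation DNA binding protein. Whether these 4 encode GRF was not examined. The relaxed prediction of the study was not used for miR396 either, so GRF sites under those limits were not examined. The site of 084792 aligned over 17 bases, all in Watson-Crick pairs, for a score of 0. That of 049891 had a G:U pair at position 12 within the scored bases and scored 0.5. The site of tospovirus resistance protein A, annotated as a virus resistance gene, also scored 0, since its mismatches lie at positions 18 and 20. Multicystatin, an inhibitor of cysteine proteases that potato tubers accumulate, had the only site with a mismatch in the seed, at position 4, together with a G:U pair at position 8, and scored 1.5. The sites of protein disulfide isomerase, an enzyme of protein folding, and of the GRIP protein also scored 1.5. All 6 sites paired at positions 10 and 11, whereas 4 of the 5 sites of miR319 did.

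**Figure D4:**
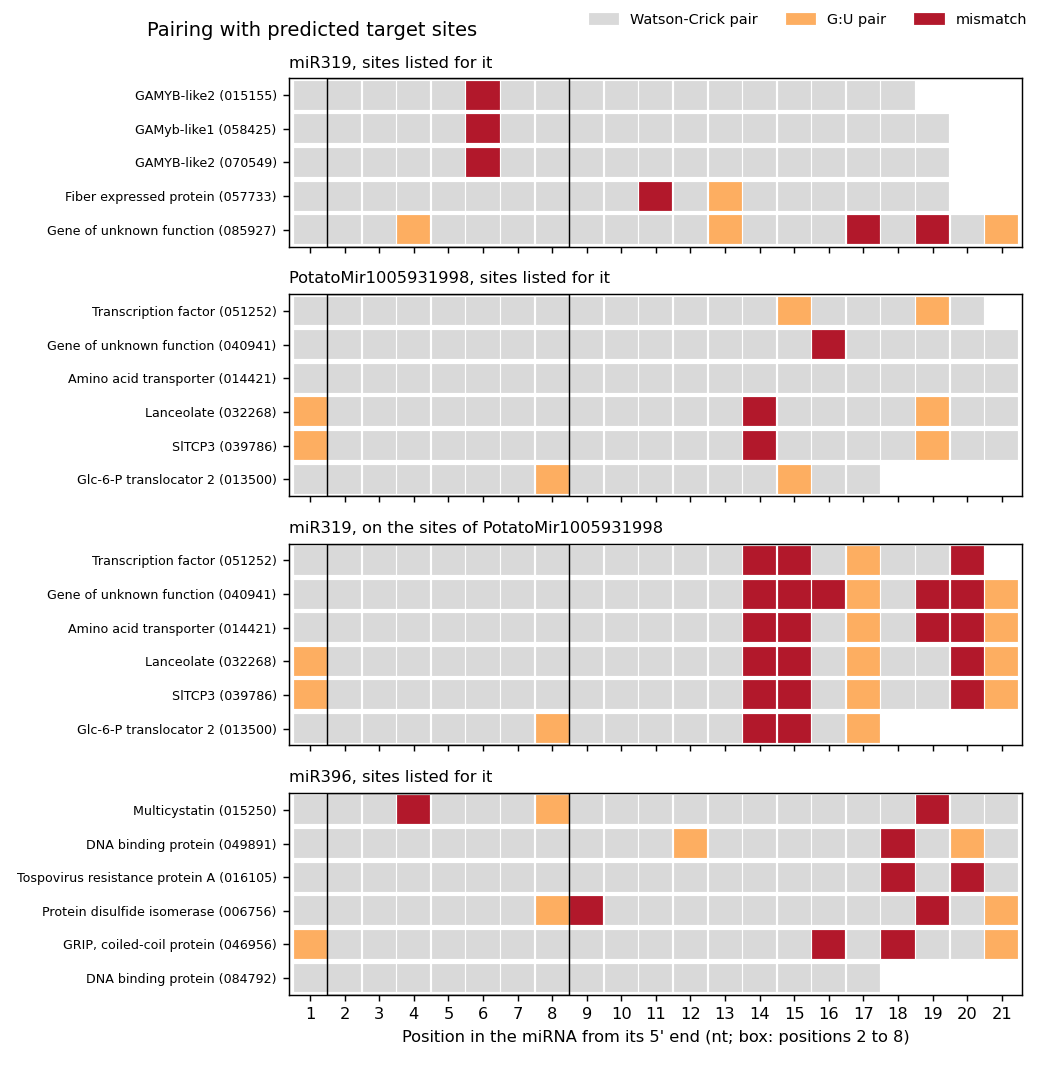
Pairing of predicted target sites with the miRNA, 1 line per site and 1 cell per miRNA position from the 5′ end (nt), grey for Watson-Crick pairs, orange for G:U pairs and red for mismatches, with vertical lines around positions 2 to 8. The 3 GAMYB-like sites of miR319 share a mismatch at position 6, and the 6 sites of PotatoMir1005931998 all leave positions 14 and 15 of miR319 unpaired.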

How the data were processed

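Small RNAs of 12 libraries were sequenced after total RNA extraction and an Illumina TruSeq small RNA preparation. The authors trimmed the reads with Cutadapt (version 1.1 in the submitters' processing notes), removed r-, t-, sn- and snoRNA, aligned the sequences with Bowtie to the DM superscaffolds without mismatches, and predicted miRNAs with RNAfold and miRDeep-P. The deposited unit is a read count per mature sequence, pooled over libraries and not normalized.

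Here, all 324 loci were folded with ViennaRNA 2.7.2 at 37 °C (default dangles). For a mature strand on the 5′ arm, the inner star end was placed at the partner of the base 2 nt inside the mature 3′ end. For a mature strand on the 3′ arm, it was placed 2 nt past the partner of the first mature base. Where that base was unpaired, the next paired base within 5 nt along the mature strand was used. The outer star end was the end of the listed precursor. Intervals are 95% Wilson intervals for shares and 95% Poisson intervals for read numbers. Those of read ratios are exact 95% (Clopper-Pearson) intervals, conditional on the summed reads of both sequences. No test was run. The duplex and site pairing procedures were tested on simulated data. Arms and site mismatches had to be recovered in every simulated case, but star strands and duplex mismatch counts in most cases only. The numbers recovered are not given here. The simulated hairpins carried the mature strand on the 5′ arm only, so the procedure for the 3′ arm was not tested. Python 3.11.15, SciPy 1.17.1, NumPy 2.4.6 and Matplotlib 3.10.9 were used. Named sequences are both members, the 3 most similar sequences each, all with the same seed, the neighbours by reads, and all listed target sites of members and seed relatives. Members and lists were chosen with earlier results of these data known. Alternatives changed the counting unit, read and length filters, folding settings, similarity measure and site scoring.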

Additional observations from a re-analysis of the deposited data

How the results depend on the processing

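Of 36 values recomputed for both members, 12 were unchanged and 24 moved. Given as miR319 then miR396, the shares of reads were 1.16% and 0.646% with reads summed over loci, 13.6% and 7.61% without the sequence with the most reads, and 3.24% and 1.81% among 21 nt sequences. Ranks by reads over loci were 5 and 8. The minimum free energy was -112.17 and -55.52 kcal/mol at 20 °C, and -83.70 and -38.70 without dangling ends. Ranks of energy per base were 62 and 166 among loci with at least 5 reads, and 26 and 78 among 21 nt loci. Mismatches were 5 and 2 with G:U pairs as mismatches. Mean pairing probability at 20 °C was 0.808 and 0.934. By edit distance, 2 and 1 of the 3 most similar sequences were kept. The median site score of miR396 was 2.25 over the whole alignment and 1.5 with G:U scored as 1. The denominators and filters themselves set the moved shares and ranks. No paired analysis was possible because the list holds no values of single libraries. Pooling leaves the depth of each library unknown, and star strands, isoforms and alleles that differ from DM were not counted.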

Other observations

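The numbers in the identifiers followed the alphabetical order of the mature sequences at all 221 steps of the list, a pattern noticed after the data were seen. Between miR319 and PotatoMir1005931858 lie 64 further identifier numbers, and between PotatoMir1005931858 and PotatoMir1005931998 another 139. In alphabetical order, anything between miR319 and PotatoMir1005931858 begins with the same 19 bases, and anything between PotatoMir1005931858 and PotatoMir1005931998 with the same 13 bases. The sequences and reads behind these numbers were not analysed here.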
